A study of Mus musculus with 105 samples.

Results

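Zc3h12a, Zc3h12c, Zc3h12d, Rc3h1 and Rc3h2 encode the Regnase and Roquin proteins, which bind hairpins in messenger RNA and bring about its decay. The 5 genes were taken by name from a table of 22322 mouse genes, and all 5 were found. Zc3h12a encodes Regnase-1, and Zc3h12c and Zc3h12d encode the related proteins Regnase-3 and Regnase-4. Regnases hold a nuclease domain beside a zinc finger, and Regnase-1 cuts its targets together with the helicase UPF1 while they are being translated. Rc3h1 and Rc3h2 encode Roquin-1 and Roquin-2, which carry no nuclease of their own and recruit the CCR4-NOT deadenylase to the same kind of hairpin. In T cells, signalling from the antigen receptor leads the protease MALT1 to cut Regnase-1 and Roquin, which spares messages such as Icos, Tnfrsf4, Rel and Il2, and Regnase-1 is known to act on hairpins in its own message.

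The data are RNA sequencing counts from CD4+ T cells of 6-week-old female C57BL/6J mice, purified from spleen and lymph nodes by negative selection. Beads coated with antibodies to CD3 and to CD28 had stimulated the activated cells, whereas the resting cells received none, and the time since stimulation is not given in the sources used here. There are 35 groups, 21 of activated and 14 of resting cells, and each was sequenced as replicates 2, 3 and 4. In each state there are cells given triptolide (25 µM) for 0, 1 or 3 h, cells given triptolide with cycloheximide or with harringtonine for 1 or 3 h, cells given cycloheximide (100 µg/ml) or harringtonine (2 µg/ml) alone for 1 or 3 h, and untreated cells at 0, 1 and 3 h. Activated cells were also given DRB (65 µM) in the same 7 ways as triptolide. Triptolide and DRB stop transcription by RNA polymerase II, triptolide at its initiation and DRB at its release into elongation. Cycloheximide halts ribosomes along the message, and harringtonine halts those that have just initiated. The labels call the replicates biological and tie no number to a mouse, so p values measure the spread between these libraries.

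The median library held 2135827 exon counts, and the range was 6300 to 6479221. At the low end, resting 1 h triptolide replicate 3 with 6300 exon counts and activated 0 h untreated replicate 3 with 141028, stood apart from the rest, where the lowest total was 551975. Zc3h12a and Zc3h12c each had 0 exon counts in 1 library, the one with 6300. Il2ra, Cd69 and Myc, a check of the activation labels, were all 3 higher in activated than in resting untreated cells at 0 h. Summed CD4 T cell markers ran from 550 to 2627 CPM over activated and from 994 to 1886 CPM over resting libraries, where CPM is counts per 1000000 of the TMM-scaled library. Summed B cell markers ran from 12.3 to 495 CPM over activated and from 51.9 to 1451 CPM over resting libraries, most of it Igkc. Summed myeloid markers reached at most 33.1 CPM and their part in the results below was not tested. In these bulk libraries, fewer cells of a type and less RNA per cell cannot be told apart.

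Hairpins of the kind these proteins read were looked for in the 3′ UTR of each gene, as a stem of at least 6 Watson-Crick pairs closed by a loop of 3 bases that runs pyrimidine, purine, pyrimidine. The 3′ UTR is that of the transcript with the longest coding sequence in GENCODE on mm10. Of the 5 genes, 4 held at least 1 such hairpin, as did 7 of 17 known targets listed for this report, against 7.62% of 20104 mouse 3′ UTRs. Per kilobase of 3′ UTR there were 0.422 hairpins in the 5 genes, 0.41 in the targets and 0.063 over all genes. A match is a description of the letters and not a measured site. The hairpins below, a selection of those found, are printed 5′ to 3′ on the strand of the gene, with the loop in capitals. Their shared stem and loop form is what the search required, so it is not a finding.

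Zc3h12a, chr4:125119069-125119083, minus strand: gatacaCATtgtatc
Zc3h12a, chr4:125118887-125118901, minus strand: aggcacCATgtgcct
Zc3h12a, chr4:125118662-125118678, minus strand: atttaaaTATtttaaat
Zc3h12c, chr9:52113469-52113483, minus strand: ctgaacCATgttcag
Rc3h1, chr1:160971660-160971674, plus strand: aacttcTGTgaagtt
Rc3h2, chr2:37373809-37373823, minus strand: aacttcTGTgaagtt
Nfkbid, chr7:30428402-30428416, plus strand: gatttcTGTgaaatc
Tnf, chr17:35199585-35199599, minus strand: gttttcTGTgaaaac
Nfkbiz, chr16:55812613-55812629, minus strand: ttgtttcTATgaaacaa

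Rc3h1 and Rc3h2 held the same 15 bases, letter for letter, and Rc3h1 held 2 further hairpins of this form in its 3′ UTR of 7181 bases. Zc3h12a held 3 within a 3′ UTR of only 856 bases. Zc3h12d held none in 2327 bases. The Tnf hairpin closes with the same loop and the same pair of bases on each side of it (cTGTg) as those of Rc3h1, Rc3h2 and Nfkbid.

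In untreated cells the 5 genes lay on very different levels. Per kilobase of merged exons, activated cells at 0 h held 33.1 ± 10.5 CPM of Zc3h12a and resting cells 11.04 ± 4.03 CPM (SD, n = 3 each, as for all levels below). Zc3h12d, the Regnase known mainly from lymphocytes, stood at 37.8 ± 3.90 CPM per kilobase in activated and 32.5 ± 1.89 in resting cells. Rc3h1 stood at 26.6 ± 9.64 CPM per kilobase in activated and 34.8 ± 3.74 in resting cells. Rc3h2 stood at 9.52 ± 0.595 CPM per kilobase in activated and 11.3 ± 1.07 in resting cells, and Zc3h12c at 1.56 ± 0.329 in activated and 0.783 ± 0.276 in resting cells. Zc3h12c, whose protein Regnase-3 is known mainly from macrophages, was thus the lowest of the 5 in both states. The place of Rc3h2 depended on the length used, since its merged exons come to 19624 bases and its coding sequence to 3561. With coding-sequence CPM per kilobase of coding length, a measure added after seeing the data, Rc3h2 stood at 22.7 ± 3.48 in activated and 28.9 ± 5.03 in resting cells.

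Across the 35 groups, each gene had its own order of exon levels. Zc3h12a was highest in activated cells after 3 h of cycloheximide, at 236 ± 74.1 CPM, and after 3 h of harringtonine, at 205 ± 39.7 CPM, and these neighbours did not differ beyond their spread. Its lowest mean was in resting cells after 1 h of triptolide, at 20.5 ± 17.8 CPM, a group that includes the library with 6300 counts. Zc3h12c was highest in activated cells after 3 h of harringtonine, at 17.9 ± 3.44 CPM, and lowest in resting cells after 3 h of cycloheximide, at 2.27 ± 0.599 CPM. Zc3h12d was highest in activated untreated cells at 3 h, at 182 ± 22.8 CPM, next to the activated 0 h groups at 155 to 175 CPM, whose ranges overlapped with it. It was lowest in resting cells after 3 h of triptolide, at 37.3 ± 6.14 CPM. Rc3h1 and Rc3h2 shared their extremes. Both were highest in resting cells after 3 h of triptolide, Rc3h1 at 675 ± 123 CPM and Rc3h2 at 372 ± 103 CPM, and both were lowest in resting cells after 3 h of cycloheximide, Rc3h1 at 115 ± 14.8 CPM and Rc3h2 at 98.2 ± 16.5 CPM.

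**Figure D1:**
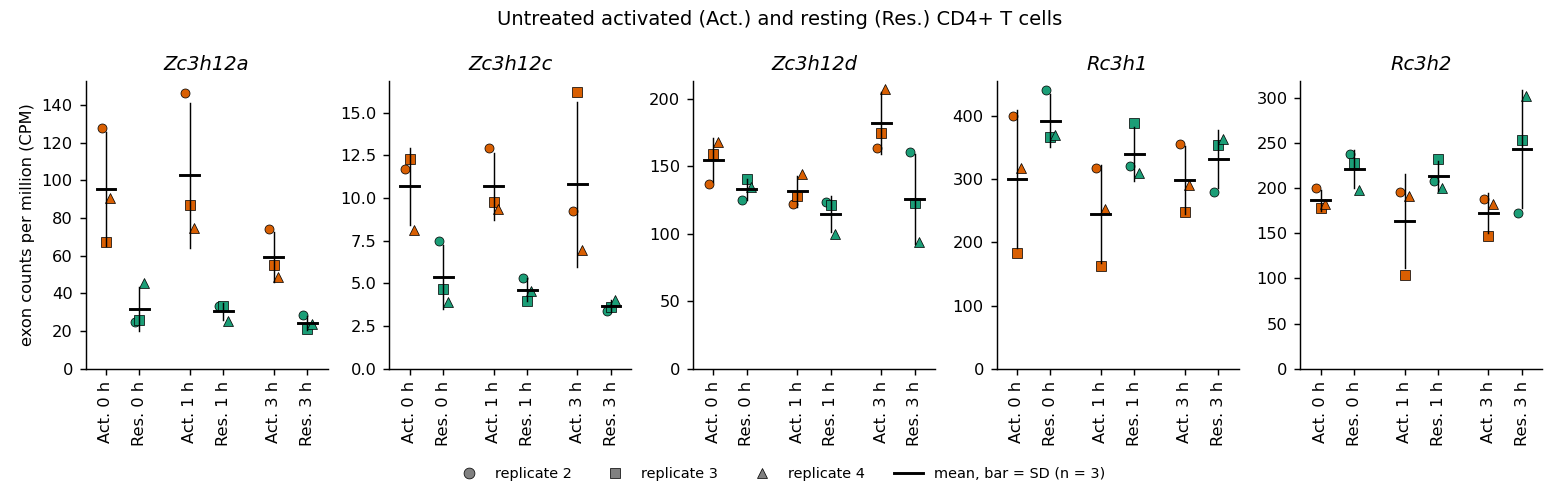
Exon CPM of the 5 genes in untreated cells at 0, 1 and 3 h. Each point is a library, the thick line is the group mean and the thin bar the SD over 3 libraries. All 3 activated libraries lay above all 3 resting ones for Zc3h12a at each time, while the Rc3h1 and Rc3h2 libraries were interleaved or lower in activated cells.

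The comparison of activated with resting untreated cells asks how receptor stimulation sets the level of the decay factors. Zc3h12a was the 1 of the 5 genes called at 0 h, where a call is a Benjamini-Hochberg adjusted p under 0.05 in edgeR's quasi-likelihood test and 26.8% of the 10741 genes tested were called. Its exon level was 128, 67.4 and 90.8 CPM in the 3 activated libraries, against 24.6, 25.6 and 45.2 CPM in the 3 resting ones. Every activated library lay above every resting one. The change was 1.67 ± 0.455 (log2, activated over resting, ± SE as for all changes below; adjusted p = 0.00357), or 3.17-fold. Zc3h12c stood 1.96-fold higher without overlap and missed the threshold (adjusted p = 0.0692), which it passed with a replicate block within each state (log2 change 1.11, adjusted p = 0.014). Without the replicate 2 libraries, the highest activated ones for Zc3h12a, its log2 change at 0 h was 1.27 and the adjusted p 0.228.

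At 1 h, where 37.9% of genes were called, 2 of the 5 were higher in activated cells. Zc3h12a was higher by 1.76 ± 0.446 (log2; adjusted p = 0.000935) and Zc3h12c by 1.23 ± 0.401 (log2; adjusted p = 0.0108). At 3 h, where 53.8% of genes were called, 3 of the 5 were higher. Zc3h12c stood at 9.24, 16.2 and 6.96 CPM in activated libraries, against 3.37, 3.60 and 4.04 CPM in resting ones, without overlap (log2 change 1.48 ± 0.403, adjusted p = 0.00132). Zc3h12d stood at 163, 175 and 207 CPM in activated libraries, against 160, 123 and 94.2 CPM in resting ones (log2 change 0.54 ± 0.216, adjusted p = 0.0279). The lowest activated Zc3h12d library lay only just above the highest resting one. Zc3h12a was still higher at 3 h, by 1.30 ± 0.456 (log2; adjusted p = 0.0128). Of these calls, Zc3h12a at 3 h was lost without replicate 2 (log2 change 1.19, adjusted p = 0.105) or replicate 3 (1.28, adjusted p = 0.103), and Zc3h12c at 3 h without replicate 3 (1.11, adjusted p = 0.0759). Zc3h12d at 3 h had a log2 change of 0.26 without replicate 4 (adjusted p = 0.511) and of 0.15 with a replicate block within each state (adjusted p = 0.42), and it did not pass with library size alone, with no filter on low counts or over the coding sequence. At 1 h, Zc3h12a did not pass without replicate 2 (1.51, adjusted p = 0.0531), nor Zc3h12c without replicate 3 (1.23, adjusted p = 0.0525) or replicate 4 (1.33, adjusted p = 0.0638).

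Scaled to the counts of ERCC spike-ins, synthetic RNAs put into each sample, the same genes were called in activated cells, with larger changes. Per spike-in molecule, 14.2% of genes were called at 0 h, 27.4% at 1 h and 50.7% at 3 h, and the median gene stood at a log2 change of 0.18, 0.13 and 0.60. Zc3h12a was higher by 1.78 at 0 h (adjusted p = 0.0155), by 2.03 at 1 h and by 1.93 at 3 h (adjusted p = 0.00199). Zc3h12c was higher by 1.43 at 1 h and by 2.16 at 3 h (adjusted p = 5.55e-05), and Zc3h12d by 1.16 at 3 h (adjusted p = 0.00249). Without replicate 2, Zc3h12a did not pass at 0 h (1.43, adjusted p = 0.321) or 1 h (1.51, adjusted p = 0.144), nor Zc3h12c at 1 h (adjusted p = 0.0731). Zc3h12a at 0 h did not pass without replicate 3 (adjusted p = 0.0961), nor did Zc3h12c at 1 h (adjusted p = 0.115) or Zc3h12d at 3 h (0.78, adjusted p = 0.218) without replicate 4. In exon counts relative to the typical mRNA, no member was called between untreated cells at 3 h and at 0 h in activated cells (13.6% of genes called) or in resting cells (6.39% called), and none reached an unadjusted p under 0.05 there in edgeR or in DESeq2.

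Neither Roquin gene was called between activated and resting cells at any of the 3 times on either scale, though with a replicate block within each state Rc3h1 was called higher per spike-in molecule at 3 h, at 0.76 (adjusted p = 0.00632). Rc3h1 had 400, 184 and 317 CPM in activated libraries at 0 h, against 442, 367 and 371 CPM in resting ones, and the groups overlapped (log2 change -0.32 ± 0.244, adjusted p = 0.347). Rc3h2 had 200, 178 and 183 CPM in activated libraries at 0 h, against 238, 228 and 198 CPM in resting ones (log2 change -0.23 ± 0.307, adjusted p = 0.627).

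Counts that fall strictly within introns, which stand for unspliced RNA, moved with some of these changes. Here and below they were scaled on intron counts alone, so intron changes are relative to the typical intron. At 0 h, where 13.5% of 10750 genes were called on introns, Zc3h12a had 82.5, 49.1 and 74.6 intron CPM in activated libraries, against 30.1, 26.6 and 41.0 in resting ones (log2 change 1.14 ± 0.282, adjusted p = 0.00216; without replicate 2, 0.96 with an adjusted p of 0.204). Rc3h1 introns were lower in activated cells at 0 h, with 81.1, 53.6 and 87.0 CPM against 149, 134 and 146 CPM in resting ones (log2 change -0.88 ± 0.300, adjusted p = 0.0353). No activated library reached the resting range, but that call was lost in 5 of 6 alternatives (leaving out replicate 2, 3 or 4, other size factors and no filter on low counts; log2 changes of -0.76 to -0.89). At 3 h, where 29.2% of genes were called on introns, Zc3h12c was the 1 member called, at 14.4, 15.9 and 6.23 intron CPM in activated libraries against 0.715, 1.43 and 3.88 in resting ones (log2 change 2.39 ± 0.60, adjusted p = 0.00109; without replicate 2, 1.95 with an adjusted p of 0.073). In a fit that sets the exon change against the intron change of the same gene, none of the 5 was called at 0 h (7.12% of genes called) or at 3 h (5.41% called), with 2 of 5 at an unadjusted p under 0.05 at 0 h and 3 of 5 at 3 h.

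Triptolide and DRB ask how each message fares once transcription stops, and each treated group is set against the 0 h group of its own arm. No member was called in exon counts between 0 h of triptolide and untreated cells at 0 h in activated cells (0.438% of genes called) or in resting cells (0% called), or between 0 h of DRB and untreated cells (0.614% called), and none reached an unadjusted p under 0.05 in edgeR or DESeq2. In introns Zc3h12a already differed at 0 h, with 15.0, 32.8 and 18.1 CPM at 0 h of triptolide, against 82.5, 49.1 and 74.6 CPM in untreated activated cells (log2 change -1.72 ± 0.305, adjusted p = 2.26e-05, 14.8% of genes called). At 0 h of DRB the Zc3h12a intron change was -1.42 ± 0.295 (log2; adjusted p = 0.00045, 13.9% called). Without replicate 2 these Zc3h12a intron changes were -1.36 (adjusted p = 0.0693) and -1.13 (adjusted p = 0.155), and without replicate 4 that with DRB was -1.29 (adjusted p = 0.0524).

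Zc3h12d, which encodes Regnase-4, was the member that lost most of its exon signal under the block. Over the coding sequence, Zc3h12a fell nearly as far after 3 h of triptolide in activated cells (log2 change -1.45, against -1.53 for Zc3h12d). It fell less than Zc3h12d with DRB (-0.338 against -0.973) and with triptolide in resting cells (-0.137 against -1.615). After 3 h of triptolide Zc3h12d had 41.4, 71.3 and 59.7 exon CPM in activated cells, against 156, 190 and 178 CPM at 0 h (log2 change -1.64 ± 0.237, adjusted p = 2.34e-08, 47.6% of genes called). Resting cells had 36.6, 31.6 and 43.8 CPM of Zc3h12d at 3 h, against 140, 124 and 129 CPM at 0 h (log2 change -1.80 ± 0.246, adjusted p = 2.94e-09, 56.8% called). With DRB, activated cells had 62.2, 92.5 and 82.2 CPM of Zc3h12d at 3 h, against 138, 189 and 162 CPM at 0 h (log2 change -1.06 ± 0.227, adjusted p = 0.000106, 39.8% called). In all 3 arms every treated library lay below every 0 h library. At 1 h Zc3h12d was the 1 member called in exon counts relative to the typical mRNA in each arm, at -1.16 ± 0.225 with triptolide in activated cells (adjusted p = 3.86e-05, 24.2% called), -0.81 ± 0.252 with triptolide in resting cells (adjusted p = 0.012, 25.7% called) and -0.80 ± 0.221 with DRB (adjusted p = 0.00744, 15.9% called). The resting 1 h call includes the library of 6300 counts and was lost without replicate 4 (log2 change -0.49, adjusted p = 0.487), as was DRB at 1 h (-0.85, adjusted p = 0.11). Over the coding sequence these Zc3h12d calls at 1 h were -0.62 in resting cells (adjusted p = 0.15) and -0.76 with DRB (adjusted p = 0.0538), while Zc3h12a was called at 1 h of triptolide in activated cells, at -1.49 (adjusted p = 0.00567). With a replicate block within each state, Rc3h1 was called there at 0.39 (adjusted p = 0.0207). Per spike-in molecule 2 of the 5 were called there, beside 4883 of 10741 genes. Zc3h12a exons were 1 of these, a call lost without replicate 2 (-1.12, adjusted p = 0.244), replicate 3 (-1.69, adjusted p = 0.0585) or replicate 4 (-1.29, adjusted p = 0.0544).

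Scaled to the spike-ins, where the median gene itself fell by 1.68 with triptolide in activated cells, fell by 1.54 with DRB and fell by 1.77 with triptolide in resting cells (log2, 3 h), Zc3h12d fell by more than the median gene in each arm. It kept 11.1% of its 0 h level after 3 h of triptolide in activated cells (log2 change -3.18 ± 0.373, adjusted p = 7.04e-12, 79.6% of genes called). It kept 15.9% after 3 h of DRB (-2.65 ± 0.354, adjusted p = 6.32e-10, 79.6% called) and 8.56% after 3 h of triptolide in resting cells (-3.55 ± 0.380, adjusted p = 1.47e-13, 77.4% called). Zc3h12d had 279, 897 and 330 exon counts per 1000000 ERCC counts in activated cells after 3 h of triptolide, against 4608, 4175 and 3556 at 0 h. Exon and intron changes were compared off the spike-in scale, each kind scaled on its own counts. Relative to the typical exon and the typical intron, Zc3h12d exons fell more than Zc3h12d introns over 3 h of triptolide. The exon minus intron difference was -1.90 ± 0.368 in activated cells (log2; adjusted p = 0.000358, 42.4% of genes called) and -1.93 ± 0.361 in resting cells (adjusted p = 9.72e-05, 42.8% called). The resting value was -0.76 (adjusted p = 0.116) with library size alone as the scaling. That scaling moved the median difference over all genes from 0.083 to 1.259 in resting and from -0.064 to 0.761 in activated cells.

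Rc3h1 and Rc3h2, which encode Roquin-1 and Roquin-2, rose relative to the typical mRNA after 3 h of triptolide and fell per spike-in molecule. Rc3h1 had 725, 633 and 603 CPM after 3 h of triptolide in activated cells, against 418, 236 and 310 CPM at 0 h (log2 change 1.02 ± 0.243, adjusted p = 0.000304). In resting cells it had 563, 806 and 654 CPM, against 481, 399 and 378 CPM (log2 change 0.69 ± 0.240, adjusted p = 0.0115). With DRB the Rc3h1 change was 0.78 ± 0.241 (adjusted p = 0.00675). Rc3h2 changed by 0.77 ± 0.299 with triptolide in activated cells (adjusted p = 0.0273), where the groups overlapped, and by 0.72 ± 0.297 in resting cells (adjusted p = 0.0321), where they did not. The Rc3h1 rise in activated cells with triptolide passed in all 12 alternatives. The resting rise of both genes and the activated rise of Rc3h2 did not pass with DESeq2, with its size factors or with library size alone, and without replicate 4 Rc3h1 had 0.62 in resting cells (adjusted p = 0.181). Rc3h2 did not pass in either state without replicate 2 (adjusted p = 0.109 in activated and 0.0556 in resting cells) or replicate 4 (adjusted p = 0.275 and 0.254). With DRB, Rc3h1 was lost without replicate 4 (0.70, adjusted p = 0.186), with library size alone (0.37, adjusted p = 0.22) and with only the libraries compared (0.81, adjusted p = 0.0565). In the fit with a replicate block within each state, Rc3h2 was also called after 3 h of DRB, at 0.49 (adjusted p = 0.00907), and at 1 h of DRB both Rc3h1, at 0.48 (adjusted p = 0.00527), and Rc3h2, at 0.46 (adjusted p = 0.0225), were called.

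Per spike-in molecule, Rc3h1 kept 67.7% of its 0 h level after 3 h of triptolide in activated cells (log2 change -0.56 ± 0.339, adjusted p = 0.119), 61.1% after 3 h of DRB (-0.71 ± 0.338, adjusted p = 0.0485) and 48.2% in resting cells (-1.05 ± 0.340, adjusted p = 0.00405). Rc3h2 kept 52.6% (adjusted p = 0.0118), 51.7% (adjusted p = 0.00937) and 49.2% (adjusted p = 0.00533) in the same order of arms. Both lost less than the median gene did in each arm. Without replicate 4 the Rc3h1 and Rc3h2 falls in resting cells had adjusted p of 0.0807 and 0.0799, with log2 changes of -1.05 and -1.04, and without replicate 2 that of Rc3h2 had -0.87 (adjusted p = 0.073). In activated cells with triptolide, Rc3h2 had -0.54 without replicate 2 (adjusted p = 0.295) and -0.96 without replicate 4 (adjusted p = 0.108). With DRB, Rc3h2 had -0.98 without replicate 4 (adjusted p = 0.101), and Rc3h1 did not pass without replicate 3 (adjusted p = 0.052), without replicate 4 (adjusted p = 0.261) or over the coding sequence (-0.69, adjusted p = 0.0887). Zc3h12c, at 5.76, 6.96 and 8.88 CPM after 3 h of triptolide in activated cells against 14.1, 9.19 and 5.83 CPM at 0 h, kept 21.2% per spike-in molecule (adjusted p = 3.18e-05), and 32.0% in resting cells (adjusted p = 0.00169).

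Introns of Rc3h1 fell with triptolide at each time. In resting cells Rc3h1 had 32.1, 26.4 and 38.3 intron CPM after 3 h, against 134, 146 and 127 intron CPM at 0 h (log2 change -2.06 ± 0.354, adjusted p = 1.36e-06, 45.7% of genes called on introns). At 1 h in resting cells the change was -1.96 ± 0.371 (adjusted p = 3.41e-05, 27.8% called). In activated cells it was -1.82 ± 0.40 at 1 h (adjusted p = 0.000214, 27.5% called) and -1.33 ± 0.381 at 3 h (adjusted p = 0.00349, 37.4% called), and the 3 h value did not pass without replicate 3 (-1.06, adjusted p = 0.0671) or replicate 4 (-0.94, adjusted p = 0.127). With each kind of count scaled on its own, the Rc3h1 exon change exceeded the intron change after 3 h of triptolide by 1.76 ± 0.357 in activated cells (log2; adjusted p = 0.000566) and by 2.38 ± 0.324 in resting cells (adjusted p = 1.49e-06). Rc3h2 introns went the other way in resting cells at 3 h, with 530, 169 and 364 CPM against 156, 136 and 146 CPM at 0 h (log2 change 1.26 ± 0.520, adjusted p = 0.0406), and were not called in 4 of 6 alternatives. Snord90, a small nucleolar RNA gene, lies within Rc3h2, and its part in those counts was not tested. With DRB it was Zc3h12a whose introns rose relative to the typical intron, to 115, 86.8 and 76.4 CPM at 3 h, against 21.7, 41.5 and 21.2 CPM at 0 h (log2 change 1.80 ± 0.302, adjusted p = 1.04e-06, 39.5% called). As given above, Zc3h12a introns at 0 h of DRB were themselves called lower than in untreated activated cells at 0 h. The rise thus starts from a lowered level, and the 3 h level was not tested against untreated cells. The rise at 1 h was 1.45 ± 0.296 (adjusted p = 8.11e-05, 25.6% called), and without replicate 2 it was 1.00 (adjusted p = 0.113). Summed over genes, the DRB libraries held 2944013, 699923 and 1853333 intron counts beside 164900, 59770 and 118443 ERCC counts at 0 h. At 3 h they held 1474813, 644518 and 695990 beside 198239, 145028 and 178802. Introns were not scaled to the spike-ins, so a rise of unspliced Zc3h12a RNA per spike-in molecule was not tested. Over 3 h the Zc3h12a intron change under DRB exceeded that under triptolide by 1.78 ± 0.476 (log2; adjusted p = 0.00685, 9.81% called), from separate 0 h groups. Zc3h12d introns were lower after 3 h of DRB (log2 change -0.93 ± 0.322, adjusted p = 0.0154; without replicate 2, -0.92 with an adjusted p of 0.124, and without replicate 4, -0.89 with one of 0.0739).

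Zc3h12a, which encodes Regnase-1, gave different values over its coding sequence and over its 3′ UTR under the block. Its exon level in resting cells after 3 h of triptolide was 136, 131 and 160 CPM, against 30.4, 35.04 and 21.4 CPM at 0 h (log2 change 2.30 ± 0.451, adjusted p = 1.24e-05). Coding-sequence counts, used in place of exon counts, gave -0.14 (adjusted p = 0.827), a change of sign. Over the coding sequence the same resting libraries held 21.6, 22.7 and 8.45 CPM at 3 h, against 17, 21.9 and 13.7 CPM at 0 h. Over the 3′ UTR they held 111, 109 and 149 CPM at 3 h, against 11.7, 7.53 and 5.35 CPM at 0 h. The exon gain of Zc3h12a in resting cells lay in 3′ UTR counts.

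In activated cells Zc3h12a was not called over exons after 3 h of triptolide (0.34 ± 0.435, adjusted p = 0.535), where the libraries held 144, 120 and 31.5 CPM, against 127, 51.8 and 53.1 CPM at 0 h. Over the coding sequence it fell, to 17.8, 20.9 and 17.7 CPM against 87.4, 26.6 and 42.1 CPM at 0 h (log2 change -1.45, adjusted p = 0.0043). Over the 3′ UTR it held 122, 90.4 and 13.7 CPM at 3 h, against 31.5, 19.4 and 5.83 CPM at 0 h. The replicates differed widely here, with replicate 4 far below replicates 2 and 3. With DRB at 3 h, Zc3h12a had 71.5, 171 and 10.6 CPM over the 3′ UTR, against 31.4, 24.2 and 13.8 CPM at 0 h, and 50.1, 11.4 and 36.6 CPM over the coding sequence, against 66.9, 25.7 and 39.0 CPM at 0 h. Neither the Zc3h12a exon change with DRB (0.72 ± 0.427, adjusted p = 0.177) nor its coding-sequence change (-0.34, adjusted p = 0.521) was called.

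**Figure D2:**
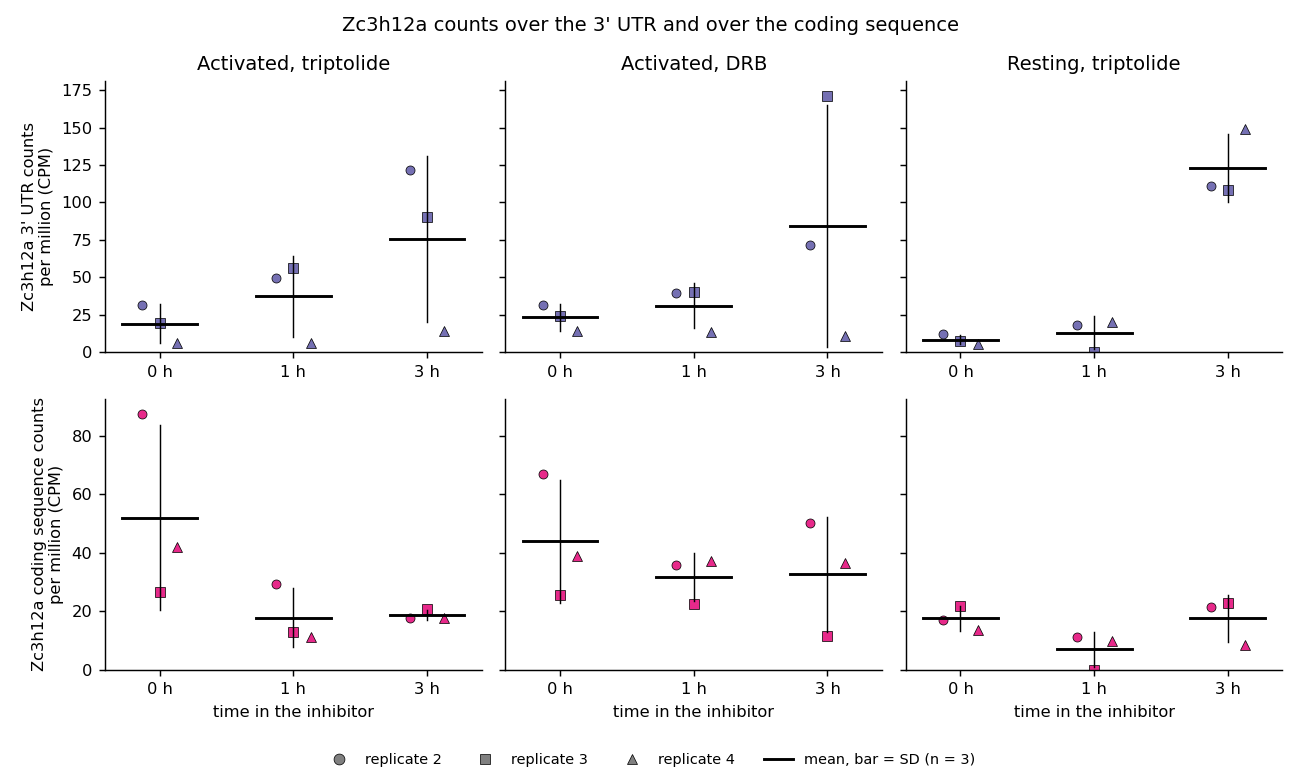
Zc3h12a CPM over the 3′ UTR (upper row) and over the coding sequence (lower row) at 0, 1 and 3 h of triptolide or DRB. Each point is a library, the thick line is the mean and the thin bar the SD over 3 libraries. In resting cells at 3 h the 3′ UTR held 109 to 149 CPM while the coding sequence held 8.45 to 22.7 CPM.

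The share of Zc3h12a exon counts that fell in the 3′ UTR was above the range of unblocked libraries after 3 h of triptolide in resting cells. It was 81.7 to 93.4% in the 9 resting libraries after 3 h of triptolide, with or without a translation inhibitor (median 89.8%), against 11 to 46.8% in the 51 libraries with no transcription inhibitor or at its 0 h (median 24.5%). It was 31.6 to 90% in 9 activated libraries after 3 h of triptolide (median 76.2%) and 19.1 to 91.8% in 9 after 3 h of DRB (median 63.2%). At 1 h it was 37 to 76% in the 8 resting libraries with Zc3h12a counts, 22.2 to 79.2% in 9 activated libraries with triptolide and 20.8 to 64.4% in 9 with DRB. Each of these ranges but the resting one at 3 h overlapped with that of the 51 libraries. Across group totals the 3′ UTR share of Zc3h12a ran from 18.6 to 91.1%, against 49.3 to 63.8% for Rc3h1, 44.7 to 63.1% for Rc3h2, 40.9 to 67.6% for Zc3h12c and 29.4 to 43.8% for Zc3h12d.

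A fit that sets the 3′ UTR change against the coding-sequence change, added after seeing the data, called Zc3h12a in resting cells after 3 h of triptolide at 4.18 ± 0.360 (log2; adjusted p = 8.85e-15, 4.1% of genes called), the 7th highest of 5389 genes. After 1 h it gave 2.19 ± 0.414 (adjusted p = 0.000169, 0.788% called), the 3rd highest of 5709 genes, and 1.97 without replicate 4 (adjusted p = 0.396). Replicate 3 of that 1 h group is the library of 6300 counts, where Zc3h12a had 0, so the value rests on 2 treated libraries, and without replicate 3 it was 1.95 (adjusted p = 0.0171). In activated cells it gave 3.19 ± 0.948 after 3 h of triptolide, which was not called (adjusted p = 0.353, 1.8% called), and 1.84 ± 1.319 after 3 h of DRB (adjusted p = 0.818, 1.27% called). No other member was called in that fit in any of 12 comparisons, of which Zc3h12c entered 2. Few genes of any kind were called in it. In the comparisons without a share above, calls ran from 0 of 5208 genes (1 h of DRB) to 71 of 5982 (resting cells, 3 h of cycloheximide). At 1 h of triptolide in resting cells, 3 of the 4 members tested, Zc3h12a among them, had an unadjusted p under 0.05, and 1 of 4 at 3 h. The annotation shows no gene overlapping Zc3h12a, at chr4:125118423-125127840 on the minus strand, and the next one past its 3′ end, Meaf6 on the plus strand, ends 5184 bases away. The counting is not stated to use strand, and what the 3′ UTR counts are was not tested.

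Per spike-in molecule the 3′ UTR of Zc3h12a was also higher in resting cells, with 830, 568 and 755 counts per 1000000 ERCC counts after 3 h of triptolide, against 258, 129 and 98.0 at 0 h. Its coding sequence was lower, with 161, 119 and 42.8 against 373, 377 and 251. On that scale the Zc3h12a coding sequence fell by 1.76 in resting cells (log2; adjusted p = 0.0055), fell by 3.26 in activated cells with triptolide (adjusted p = 1.01e-06) and fell by 1.81 with DRB (adjusted p = 0.00138). The exon counts gave 0.59 ± 0.521 (adjusted p = 0.294), -1.23 ± 0.526 (adjusted p = 0.0286) and -0.83 ± 0.509 (adjusted p = 0.128) in the same order. Without replicate 2 the exon change in activated cells was -0.55 (adjusted p = 0.519), and without replicate 4 it was -0.99 (adjusted p = 0.0911). Below, Zc3h12a values under a transcription inhibitor are given with their coding-sequence values.

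**Figure D3:**
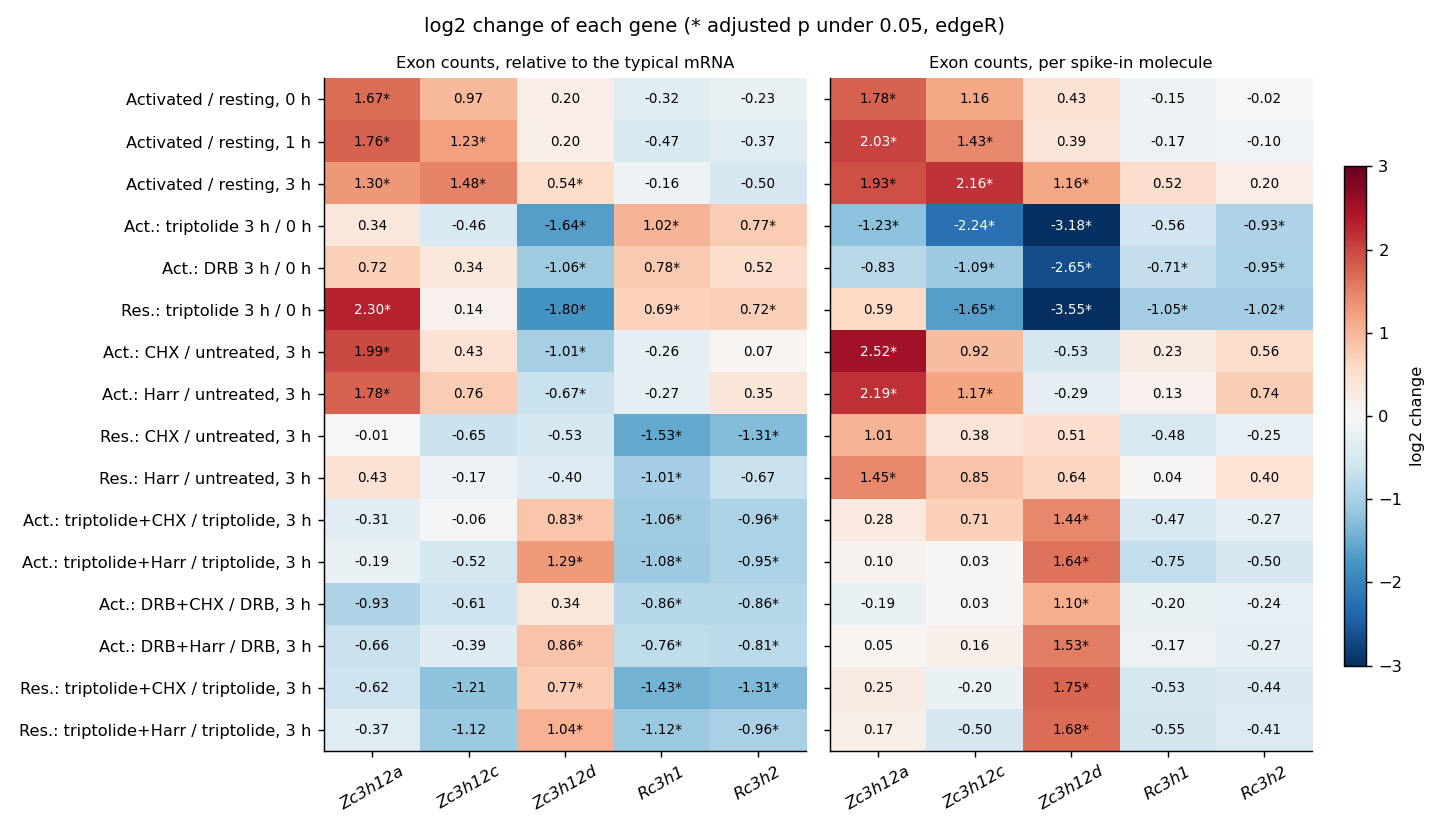
The log2 change of each gene (columns) in 16 comparisons (rows), tested over the group it is set against, from exon counts relative to the typical mRNA (left) and per spike-in molecule (right). Colour runs from -3 (blue) to 3 (red) and an asterisk marks an adjusted p under 0.05. Rc3h1 and Rc3h2 after 3 h of triptolide are positive on the left and negative on the right, and Zc3h12a in those rows carries the 3′ UTR counts.

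Cycloheximide and harringtonine alone ask what a halt of translation does to each message while transcription goes on. In activated cells at 3 h, Zc3h12a rose and Zc3h12d fell with both drugs, and Rc3h1 and Rc3h2 were not called. In resting cells Rc3h1 fell with both drugs and Rc3h2 with cycloheximide, and Zc3h12a was not called.

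Zc3h12a had 310, 162 and 238 CPM in activated cells with cycloheximide and 247, 169 and 198 CPM with harringtonine, against 73.9, 55.2 and 48.7 CPM in untreated cells at 3 h. All 6 treated libraries lay above all 3 untreated ones. The change was 1.99 ± 0.426 with cycloheximide (log2; adjusted p = 0.000146, 30% of genes called) and 1.78 ± 0.424 with harringtonine (adjusted p = 0.000627, 31% called), or 3.98-fold and 3.44-fold. Over the coding sequence the Zc3h12a changes were 2.18 (adjusted p = 2.04e-06) and 1.93 (adjusted p = 1.86e-05), and both exon calls passed in all 12 alternatives. Per spike-in molecule Zc3h12a rose by 2.52 (adjusted p = 0.00013, 28% called) and 2.19 (adjusted p = 0.000882, 24.1% called). Its introns rose too, to 126, 116 and 103 CPM with cycloheximide and 122, 146 and 137 CPM with harringtonine, against 40.5, 41.1 and 39.1 CPM in untreated cells (log2 changes 1.51 ± 0.276, adjusted p = 2.56e-05, 13.7% called, and 1.75 ± 0.277, adjusted p = 1.36e-06, 13.6% called). The exon and intron changes of Zc3h12a did not differ past the threshold. The difference was 0.44 ± 0.284 with cycloheximide (adjusted p = 0.402, 4.35% called) and 0.02 ± 0.254 with harringtonine (adjusted p = 0.983, 6.55% called). None of the 5 was called in that fit with either drug in activated cells, and 2 of 5 reached an unadjusted p under 0.05 with each.

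In resting cells Zc3h12a had 22.9, 22.5 and 26.2 CPM with cycloheximide and 30.03, 37.1 and 30.3 CPM with harringtonine, against 28.3, 21.2 and 23.7 CPM in untreated cells at 3 h. The cycloheximide libraries lay within the untreated range, and all harringtonine libraries lay above it without a call (log2 change 0.43 ± 0.456, adjusted p = 0.555). Per spike-in molecule, where the median gene rose by 1.02 with cycloheximide and 1.00 with harringtonine, Zc3h12a rose by 1.45 with harringtonine (adjusted p = 0.0177, 60.3% of genes called; without replicate 3, 1.14 with an adjusted p of 0.206). With a replicate block within each state, Zc3h12a introns were called in resting cells at 0.76 with cycloheximide (adjusted p = 0.0352) and 0.86 with harringtonine (adjusted p = 0.0133). Without the block no member was called on introns there (3.07% and 2.32% of genes called), with 2 of 5 and 1 of 5 at an unadjusted p under 0.05.

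Zc3h12d fell in activated cells, to 82.3, 62.9 and 125 CPM with cycloheximide and 109, 96.6 and 136 CPM with harringtonine, against 163, 175 and 207 CPM in untreated cells at 3 h. Every treated library lay below every untreated one. The change was -1.01 ± 0.217 with cycloheximide (log2; adjusted p = 0.000154) and -0.67 ± 0.215 with harringtonine (adjusted p = 0.0118), and the harringtonine call was lost without replicate 3 (-0.51, adjusted p = 0.129) or replicate 4 (-0.71, adjusted p = 0.098). Zc3h12d introns were also lower, with log2 changes of -1.48 ± 0.298 (adjusted p = 0.000146) and -1.28 ± 0.295 (adjusted p = 0.000881), and the harringtonine one was -1.20 without replicate 2 (adjusted p = 0.0572). Per spike-in molecule Zc3h12d was not called in activated cells (-0.53 and -0.29). In resting cells its exon changes of -0.53 ± 0.217 (adjusted p = 0.0588) and -0.40 ± 0.217 (adjusted p = 0.195) were called with a replicate block within each state, at -0.52 (adjusted p = 0.00412) and -0.39 (adjusted p = 0.0408). Zc3h12c was called in activated cells with harringtonine only with that block, at 0.79 (adjusted p = 0.0141), or per spike-in molecule, at 1.17 (adjusted p = 0.0216; without replicate 2, 0.86 with an adjusted p of 0.157, and without replicate 4, 1.11 with one of 0.254).

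**Figure D4:**
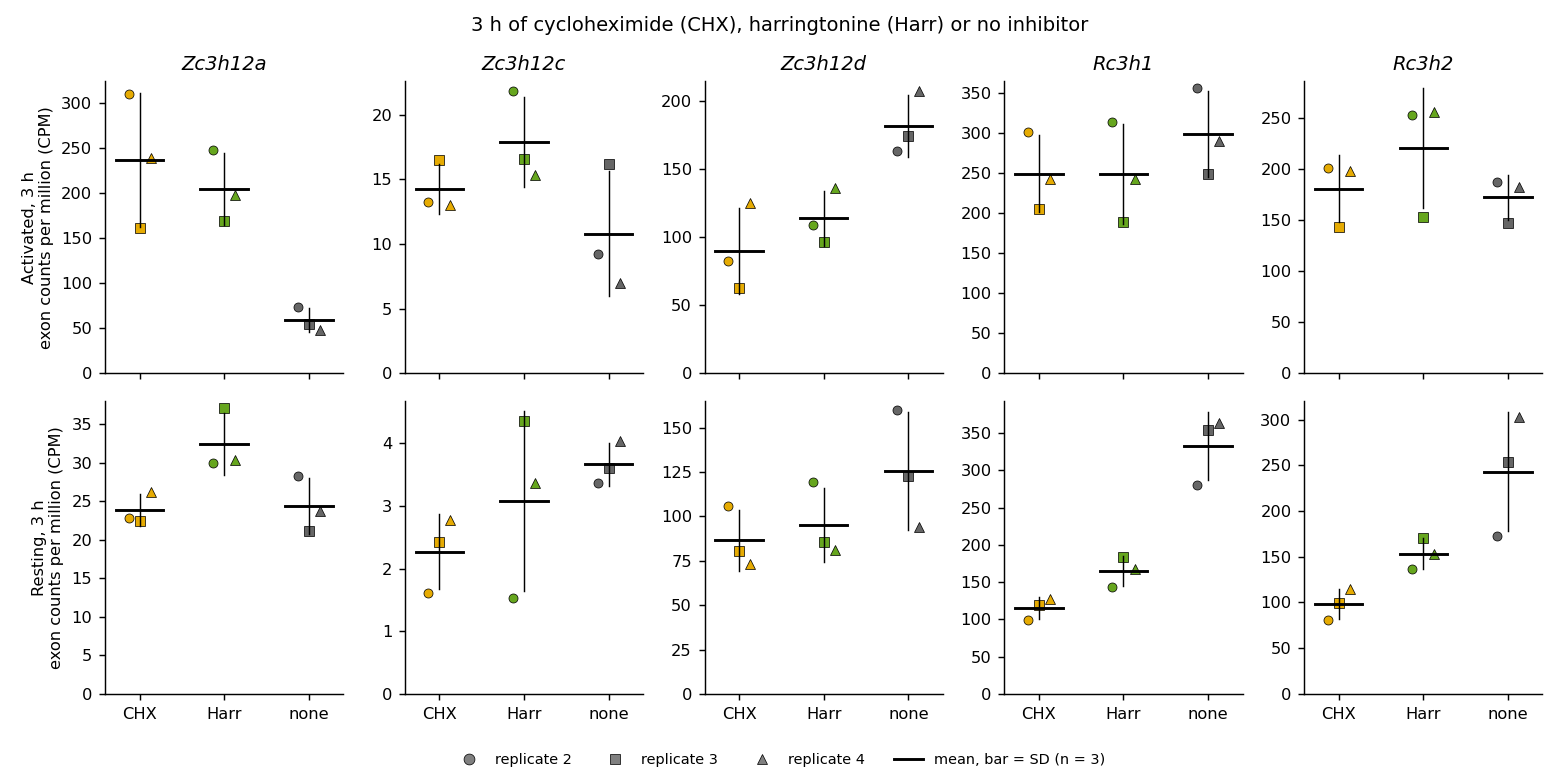
Exon CPM of the 5 genes after 3 h of cycloheximide, of harringtonine or of no inhibitor, in activated (upper row) and resting cells (lower row). Each point is a library, the thick line is the mean and the thin bar the SD over 3 libraries. Zc3h12a stood at 162 to 310 CPM with an inhibitor in activated cells, and Rc3h1 at 99.0 to 184 CPM with one in resting cells.

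Rc3h1 fell in resting cells to 99.0, 119 and 128 CPM with cycloheximide and 144, 184 and 168 CPM with harringtonine, against 280, 354 and 364 CPM in untreated cells at 3 h. No treated library reached the untreated range. The change was -1.53 ± 0.245 with cycloheximide (log2; adjusted p = 1.62e-06, 26.3% of genes called) and -1.01 ± 0.242 with harringtonine (adjusted p = 0.00134, 20.5% called). Rc3h2 fell to 81.2, 99.0 and 114 CPM with cycloheximide, against 173, 254 and 302 CPM in untreated cells (log2 change -1.31 ± 0.299, adjusted p = 0.000532). With harringtonine Rc3h2 had 137, 170 and 153 CPM (log2 change -0.67 ± 0.295, adjusted p = 0.0996), which was called with a replicate block within each state at -0.67 (adjusted p = 0.00047). Without replicate 4, Rc3h1 with harringtonine (-0.92, adjusted p = 0.168) and Rc3h2 with cycloheximide (-1.21, adjusted p = 0.0879) were not called, and Rc3h1 with cycloheximide passed in all 12 alternatives.

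These falls were relative to the typical mRNA, since per spike-in molecule Rc3h1 changed by -0.48 with cycloheximide (adjusted p = 0.212, 61.4% of genes called) and 0.04 with harringtonine (adjusted p = 0.92), and Rc3h2 by -0.25 and 0.40, none of them called. In the fit of exon against intron change, each kind was scaled on its own counts. Its differences are thus relative to the typical exon and the typical intron, and are not falls per spike-in molecule. With cycloheximide the Rc3h1 exon change differed from its intron change by -1.14 ± 0.150 (log2; adjusted p = 6.13e-05, 18.1% of genes called) and that of Rc3h2 by -0.75 ± 0.164 (adjusted p = 0.00384). With harringtonine the Rc3h1 difference was -0.77 ± 0.154 (adjusted p = 0.00343, 11.2% called), which did not pass without replicate 3 (-0.78, adjusted p = 0.0687) or replicate 4 (-0.83, adjusted p = 0.0673). Rc3h2 with cycloheximide did not pass without replicate 3 (-0.75, adjusted p = 0.108). Zc3h12a was also called with cycloheximide, at -0.82 ± 0.260 (adjusted p = 0.0327), and was lost in each of 4 alternatives.

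At 1 h of cycloheximide or harringtonine no member was called in activated cells in exon counts relative to the typical mRNA (2.63% and 2.09% of genes called), and none reached an unadjusted p under 0.05 on that scale in edgeR or DESeq2. Per spike-in molecule none was called there either (6.19% and 16.1% of genes called), with 0 of 5 and 2 of 5 at an unadjusted p under 0.05. With a replicate block within each state, calls with harringtonine on that scale were Zc3h12a at 1.24 (adjusted p = 0.0136), Zc3h12d at 0.67 (adjusted p = 0.029), Rc3h1 at 0.58 (adjusted p = 0.0425) and Rc3h2 at 0.73 (adjusted p = 0.00501), where the median gene stood at 0.57 without the block. The share of all genes called with the block is not given here, so these calls have no background beside them. On introns none was called (0.363% and 0.112% of genes called), with 2 of 5 and 1 of 5 at an unadjusted p under 0.05, and with the block Zc3h12a was called with cycloheximide at 0.85 (adjusted p = 0.0202) and Zc3h12d at -0.84 (adjusted p = 0.0213). Relative to the typical mRNA, none was called in resting cells either (1.22% called with cycloheximide and 1.57% with harringtonine), with 2 of 5 and 1 of 5 at an unadjusted p under 0.05. DESeq2 called 1 of 5 with each drug in resting cells. With a replicate block within each state, Rc3h1 was already lower in resting cells at 1 h, at -0.84 with cycloheximide (adjusted p = 1.61e-05) and -0.81 with harringtonine (adjusted p = 3.16e-05), and Rc3h2 at -0.67 with cycloheximide (adjusted p = 0.00292). Rc3h1 had 175, 211 and 184 CPM with cycloheximide and 194, 184 and 199 CPM with harringtonine, against 321, 390 and 309 CPM in untreated resting cells at 1 h. No treated library overlapped the untreated ones.

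Between the drugs, no member differed past the threshold at 3 h, in activated cells (0% of genes called) or in resting cells (0.00931% called). The Zc3h12a difference, cycloheximide over harringtonine, was 0.21 ± 0.40 in activated cells (log2), and that of Rc3h1 was -0.52 ± 0.242 in resting cells, where every cycloheximide library lay below every harringtonine one. At an unadjusted p under 0.05 there were 0 of 5 members in activated and 2 of 5 in resting cells, which does not show that the drugs act alike on these messages.

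Adding a translation inhibitor to triptolide or DRB asks whether a message decays more slowly when ribosomes are halted. Zc3h12d was higher with the added drug in 5 of 6 comparisons at 3 h, and Rc3h1 and Rc3h2 were lower in all 6. Of the 5 genes, 3 were called with cycloheximide added to triptolide in activated cells (27.3% of genes called), 3 with harringtonine added (24.7%), 3 and 3 in resting cells (35.2% and 24%), 2 with cycloheximide added to DRB (17.6%) and 3 with harringtonine added to DRB (18.7%).

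Zc3h12d had 87.8, 128 and 83.5 CPM with cycloheximide added to triptolide and 135, 157 and 117 CPM with harringtonine added, against 41.4, 71.3 and 59.7 CPM with triptolide alone in activated cells. The changes were 0.83 ± 0.237 (log2; adjusted p = 0.00562) and 1.29 ± 0.238 (adjusted p = 1.36e-05). Every library with the added drug lay above every library with triptolide alone. In resting cells Zc3h12d had 76.6, 59.7 and 55.4 CPM with cycloheximide added and 90.2, 73.4 and 68.7 CPM with harringtonine added, against 36.6, 31.6 and 43.8 CPM with triptolide alone (log2 changes 0.77 ± 0.251, adjusted p = 0.0127, and 1.04 ± 0.251, adjusted p = 0.00104). With harringtonine added to DRB it had 104, 168 and 154 CPM, against 62.2, 92.5 and 82.2 CPM with DRB alone (0.86 ± 0.228, adjusted p = 0.00348). With cycloheximide added to DRB it had 88.2, 107 and 102 CPM and was not called (0.34 ± 0.235, adjusted p = 0.329).

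Per spike-in molecule Zc3h12d was called in all 6, at 1.44, 1.64, 1.099 and 1.53 in activated cells (cycloheximide and harringtonine added to triptolide, then to DRB) and at 1.75 and 1.68 in resting cells. The adjusted p values ran from 5.18e-05 to 0.0112, against 22.7 to 46.2% of genes called and medians over all genes of 0.38 to 0.86. Without replicate 4 the calls in activated cells with triptolide (adjusted p = 0.0735 and 0.0668) and with cycloheximide added to DRB (adjusted p = 0.16) were lost, the last also without replicate 3 (adjusted p = 0.0573). With the added drug, the activated libraries under triptolide held 83.5 to 157 CPM of Zc3h12d, against 156 to 190 CPM at 0 h, and only 1 of the 6 reached into the 0 h range. The Zc3h12d calls did not all hold across alternatives. Over the coding sequence the cycloheximide change in activated cells was 0.60 (adjusted p = 0.138), the resting one was 0.58 without replicate 2 (adjusted p = 0.0904) and 0.73 without replicate 3 (adjusted p = 0.0659), and that of harringtonine with DRB was 0.83 without replicate 4 (adjusted p = 0.088).

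**Figure D5:**
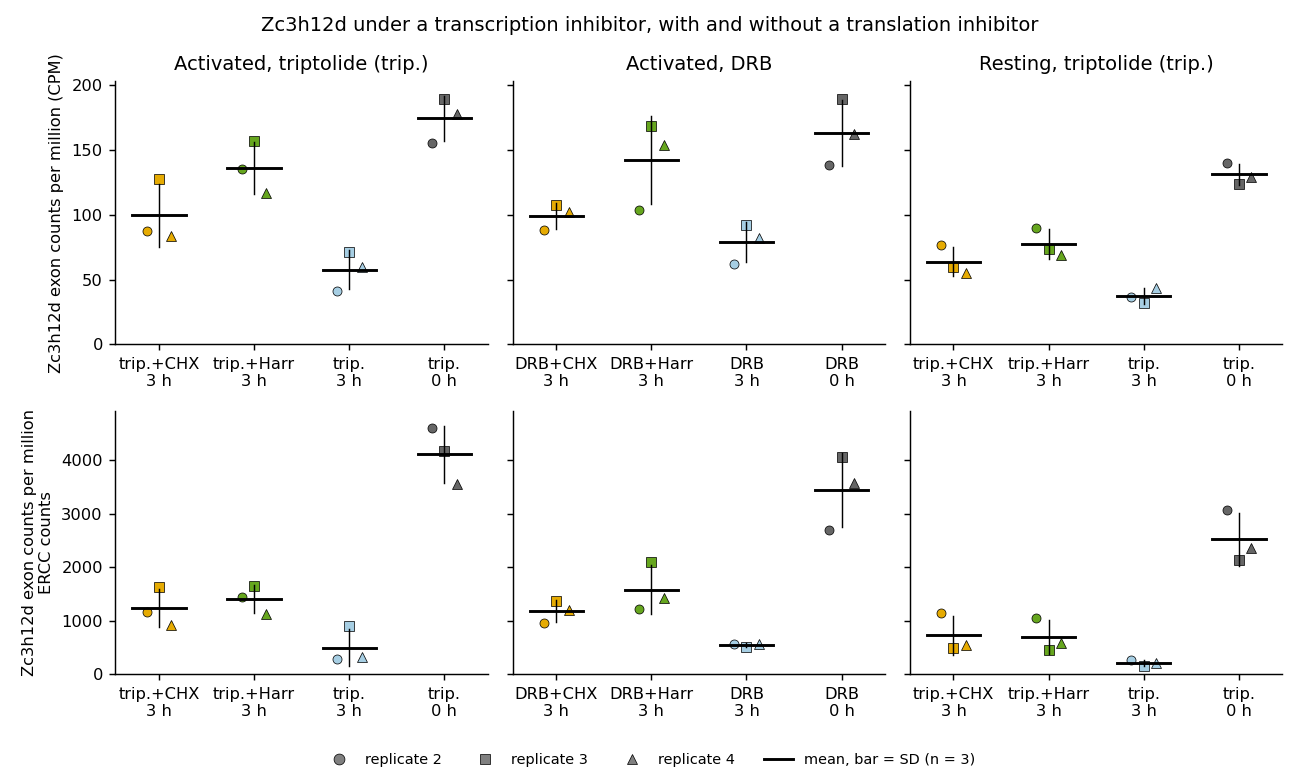
Zc3h12d exon CPM (upper row) and exon counts per 1000000 ERCC counts (lower row) after 3 h of a transcription inhibitor with or without a translation inhibitor, and at its 0 h. Each point is a library, the thick line is the mean and the thin bar the SD over 3 libraries. In activated cells the libraries with cycloheximide or harringtonine added to triptolide stood at 83.5 to 157 CPM, above the 41.4 to 71.3 CPM of triptolide alone.

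At 1 h the Zc3h12d rise was called with cycloheximide added to triptolide (0.68, adjusted p = 0.0317, 11.7% of genes called), with harringtonine added to triptolide (0.93, adjusted p = 0.00167, 11.4% called) and with harringtonine added to DRB (0.68, adjusted p = 0.0444, 6.88% called), all in activated cells. Each of these 3 Zc3h12d calls was lost without replicate 4, with log2 changes of 0.55, 0.79 and 0.75 (adjusted p = 0.422, 0.165 and 0.264). The cycloheximide call was also lost without replicate 2 (adjusted p = 0.0837), and the call with DRB without replicate 2 (adjusted p = 0.185) or replicate 3 (adjusted p = 0.109).

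Rc3h1 had 358, 221 and 363 CPM with cycloheximide added to triptolide in activated cells, against 725, 633 and 603 CPM with triptolide alone (log2 change -1.06 ± 0.242, adjusted p = 0.000471). In resting cells it had 221, 279 and 254 CPM, against 563, 806 and 654 CPM (log2 change -1.43 ± 0.245, adjusted p = 3.29e-06). No library with the added drug reached the lowest with triptolide alone. The other 4 Rc3h1 changes were -1.08, -1.12, -0.86 and -0.76, and those of Rc3h2 ran from -1.31 to -0.81 (adjusted p = 0.000422 to 0.046). Per spike-in molecule neither gene was called in any of the 6, and with a replicate block Rc3h1 was called in 4, at -0.59, -0.84, -0.54 and -0.57 (adjusted p = 0.032, 0.00317, 0.0438 and 0.0492), and Rc3h2 in 1, at -0.56 (adjusted p = 0.0384). The Rc3h1 calls with triptolide passed in the alternatives run. With DRB the Rc3h1 calls were lost without replicate 4 (-0.72 and -0.61), with library size alone and with only the libraries compared. All 6 Rc3h2 calls were lost without replicate 4 (log2 changes of -1.25 to -0.68, adjusted p = 0.0503 to 0.433), and 5 of the 6, all but cycloheximide with triptolide in resting cells, without replicate 2 (adjusted p = 0.0708 to 0.231) and with library size alone. Zc3h12a was not called in any of the 6, over exons (-0.93 to -0.19) or over the coding sequence (-1.098 to -0.38).

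Differences between these changes were tested directly. The cycloheximide change at 3 h, activated minus resting cells, differed for 3 of the 5 genes (16.6% of genes called). The difference was 2.00 ± 0.623 for Zc3h12a (log2; adjusted p = 0.0179), whose rise was called in activated cells. It was 1.27 ± 0.341 for Rc3h1 (adjusted p = 0.00537) and 1.38 ± 0.419 for Rc3h2 (adjusted p = 0.015), whose falls were called in resting cells. Per spike-in molecule no member was called (15.1% of genes called), with 2 of 5 at an unadjusted p under 0.05, and the differences were 1.503 ± 0.737 for Zc3h12a (adjusted p = 0.161), 0.71 ± 0.478 for Rc3h1 (adjusted p = 0.33) and 0.81 ± 0.479 for Rc3h2 (adjusted p = 0.262). With a replicate block within each state, Rc3h2 was called on that scale at 0.79 (adjusted p = 0.0351) and Zc3h12d at -1.04 (adjusted p = 0.0175). Relative to the typical mRNA, the Zc3h12a difference was 1.84 without replicate 2 (adjusted p = 0.151) and 2.23 without replicate 3 (adjusted p = 0.0958). That of Rc3h1 was 1.26 without replicate 4 (adjusted p = 0.195), and that of Rc3h2 was 1.44 without replicate 2 (adjusted p = 0.0904) and 1.27 without replicate 4 (adjusted p = 0.292). Over the coding sequence Zc3h12a gave 2.11 (adjusted p = 0.00547) and Rc3h1 0.97 (adjusted p = 0.076). For harringtonine no member was called (9.65% of genes called), with 3 of 5 at an unadjusted p under 0.05 in edgeR and in DESeq2, and with a replicate block within each state Zc3h12a was called at 1.39 (adjusted p = 0.0358), Rc3h1 at 0.73 (adjusted p = 0.00338) and Rc3h2 at 0.99 (adjusted p = 0.000457).

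In activated cells the cycloheximide change under triptolide was set against that without it, and 2 of the 5 differed (23.9% of genes called). It was smaller for Zc3h12a (difference -2.30 ± 0.604, log2; adjusted p = 0.00257; coding sequence -2.58, adjusted p = 0.000642), and larger for Zc3h12d (1.83 ± 0.321, adjusted p = 6.01e-06). Per spike-in molecule these were -2.23 (adjusted p = 0.0251, 15.5% called; coding sequence -2.35, adjusted p = 0.0274) and 1.96 (adjusted p = 0.00249). The Zc3h12a difference over exons was -1.89 without replicate 2 (adjusted p = 0.115), and per spike-in molecule it was lost without replicate 2, 3 or 4 (adjusted p = 0.215, 0.0782 and 0.119), as was that of Zc3h12d without replicate 4 (adjusted p = 0.167). With a replicate block within each state, Rc3h1 (-0.82, adjusted p = 0.000546) and Rc3h2 (-1.05, adjusted p = 0.000135) were also called. In resting cells Zc3h12d differed in the same direction, by 1.30 ± 0.332 (adjusted p = 0.00349, 15.1% called; without replicate 3, 1.17 with an adjusted p of 0.0505). The Zc3h12a change over 3 h of triptolide differed between activated and resting cells over exons (difference -1.96 ± 0.621, adjusted p = 0.0408, 6.47% called), and not past the threshold over the coding sequence (-1.32, adjusted p = 0.275) or per spike-in molecule (-1.82 ± 0.74, adjusted p = 0.246, 1.95% called). The exon call was also lost without replicate 2 (-1.95, adjusted p = 0.274), replicate 3 (-2.57, adjusted p = 0.0877) or replicate 4 (-1.42, adjusted p = 0.17), with library size alone, with only the libraries compared and without the 2 shallowest libraries.

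Known targets of these proteins, a list of 17 messages of which 13 had enough counts to be tested, moved strongly with activation. At 0 h, 10 of 13 rose, 1 fell and 2 were not called in activated against resting cells, with a median log2 change of 2.29, beside 1493 rises and 1382 falls and a median of -0.01 over all 10741 genes. Il2, the cytokine interleukin-2, rose by 6.38 ± 0.546 (log2), Irf4, a transcription factor of activated lymphocytes, by 4.45 ± 0.278, and Nfkbid, a nuclear regulator of NF-κB, by 4.14 ± 0.326. Ctla4, an inhibitory receptor, fell by 1.20 ± 0.260 (adjusted p = 0.00022). The list names messages that T cell activation is known to induce, and it was written with results of these data known.

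After 3 h of triptolide in activated cells 1 of 13 targets rose and 6 fell (median -0.54), and in resting cells none rose and 6 fell (median -0.71), beside medians of -0.03 and -0.06 over all genes, of which 47.6% and 56.8% were called. The shares of targets called thus lay near those over all genes. Irf4 fell by 2.61 ± 0.257 in activated and fell by 1.90 ± 0.285 in resting cells, and Tnfrsf4, which encodes the costimulatory receptor OX40, fell by 1.62 ± 0.208 and fell by 2.54 ± 0.252. Tfrc, the transferrin receptor, was the 1 that rose in activated cells, by 1.05 ± 0.229. With cycloheximide at 3 h, 5 of 13 rose and 3 fell in activated cells, where 30% of all genes were called, and 2 rose and 1 fell in resting cells, where 26.3% were. Ptgs2, Ier3 and Nfkbiz rose in activated cells by 3.44 ± 0.817, 3.40 ± 0.679 and 2.81 ± 0.265, while Il2 fell by 1.33 ± 0.335 and Icos, a costimulatory receptor, fell by 0.69 ± 0.205. Tfrc fell by 1.30 ± 0.229 in activated and fell by 1.01 ± 0.239 in resting cells, where Tnfrsf4 rose by 1.03 ± 0.20.

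Of 9 genes that act on the decay factors, in the receptor pathway to MALT1, in IκB kinase and as a competitor at the hairpin, 2 rose and 2 fell at 0 h in activated against resting cells, where 26.8% of all genes were called. Malt1, the protease that cuts Regnase-1 and Roquin, rose by 0.88 ± 0.194 (log2; adjusted p = 0.000255), and Ikbkb, a kinase that phosphorylates Regnase-1, by 0.67 ± 0.170. After 3 h of triptolide, Btrc, which encodes the ubiquitin ligase subunit βTrCP, rose by 1.70 ± 0.222 in activated and 2.79 ± 0.223 in resting cells, and Bcl10, the partner of MALT1, fell by 2.63 ± 0.304 and fell by 2.80 ± 0.322. Arid5a, whose protein shields some of the same messages from Regnase-1, rose with cycloheximide by 1.71 ± 0.317 in activated and 2.40 ± 0.322 in resting cells. In all, 3 of 9 rose and 2 fell after 3 h of triptolide in activated cells (47.6% of all genes called) and 5 rose and 3 fell in resting cells (56.8%), while with cycloheximide 4 rose and 1 fell in activated cells (30%) and 2 rose in resting cells (26.3%).

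Of 11 partners in decay, 1 rose and none fell at 0 h of activation (26.8% of all genes called), which was Upf1, the helicase of Regnase-1, by 0.79 ± 0.196 (log2; adjusted p = 0.00131). After 3 h of triptolide 2 rose and 2 fell in each state, against 47.6% of all genes called in activated and 56.8% in resting cells. Smg1, the kinase of UPF1, rose by 0.89 ± 0.219 in activated and 1.02 ± 0.219 in resting cells, and Cnot8, a deadenylase subunit of CCR4-NOT, fell by 1.89 ± 0.325 and fell by 1.90 ± 0.316. With cycloheximide 2 rose in activated cells, among them Ddx6 by 0.84 ± 0.216, and 2 rose and 1 fell in resting cells, against 30% and 26.3% of all genes called. These counts of partners lay below or near the shares over all genes. Of the Regnase-like nuclease genes N4bp1 and Khnyn, N4bp1 was lower in activated than in resting cells at 0 h (log2 change -0.65 ± 0.196, adjusted p = 0.00925) and fell by 1.22 ± 0.208 after 3 h of triptolide in activated cells, and Zc3h12b had too few counts to be tested. On the spike-in scale the median of all genes fell under triptolide, so these rises are relative to the typical mRNA.

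Across the 35 group means of log2 CPM, the genes were compared with 7789 others of at least 10 CPM, as a description without a test. The groups hold the same replicate numbers and differ in depth. Rc3h1 was most like Bmpr2 (Pearson r = 0.93), Pabpc1 (0.92) and Pcbp2 (0.89), and Rc3h2 most like Col4a3bp (0.89), Xiap (0.86) and Rock2 (0.82). Zc3h12a was most like Ptpn23 (0.88), Pfkfb3 (0.86) and Zbp1 (0.86), over exon levels that include the 3′ UTR counts. Zc3h12c was most like Spred1 (0.91), Uap1 (0.90) and Nr4a2 (0.89), and Zc3h12d most like Taf5l (0.87), Umps (0.83) and Usp42 (0.82). Among the members, Rc3h1 and Rc3h2 moved most alike, with an r of 0.84 over all groups, 0.79 over the 21 activated and 0.87 over the 14 resting ones. Zc3h12a and Zc3h12c had an r of 0.68 over activated and 0.16 over resting groups, and Zc3h12d and Rc3h1 had -0.36 over all.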

How the data were processed

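Per the submitters' processing notes, the authors used TopHat2 2.0.13, Bowtie 1.1.1.0 and HTSeq with mm10. The deposited table holds raw HTSeq counts per gene and library over exons, strictly intronic sequence, coding sequence and UTRs, and counts of ERCC spike-ins. Whether the counting used strand, and which annotation it used, is not given in the sources used here. Intron counts ran from 3897 to 4755794 and ERCC counts from 660 to 388386 per library, and 75.84 to 97.25% of the reads in the table's totals lay outside the gene counts and were left out of library sizes. No pair of replicates agreed within sampling noise (lowest chi-square per degree of freedom 1.145 over 105 pairs).

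The main test was edgeR 4.0.16 (quasi-likelihood F test, robust, R 4.3.3) on 35 group means over all 105 libraries, with TMM factors and filterByExpr, for 45 comparisons. P values were Benjamini-Hochberg adjusted over all genes tested, 10741 for exons and 10750 for introns, with calls under 0.05. The spike-in fit used summed ERCC counts as library sizes, since the labels' protocols state equal cell numbers at each time, and introns had a fit of their own. Exon minus intron and 3′ UTR minus coding-sequence changes were tested on the 6 libraries compared, with library as a block and TMM factors within each kind of count. CPM use TMM-scaled library sizes. The fits were tested on simulated data.

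Replicate numbers were checked for pairing: deviations from the group mean correlated at 0.411 for the same number within a cell state, at -0.202 for other numbers and at -0.122 for the same number across states. In 29 of 35 comparisons within a state every pair exceeded 0.1, and in 0 of 3 between states. The replicate block within each state was an alternative, as were a block over all libraries, DESeq2, other size factors, library size alone, no filter, only the libraries compared, leaving out each replicate or the 2 shallowest libraries, and, added after seeing the data, coding-sequence counts for the spike-in fit and the 3′ UTR fit.

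The members and the gene lists were chosen with earlier results of these data known. The text describes all 5 members, up to 3 called genes of a list in each direction with the largest change, and the 3 genes most like each member across groups. Lengths, neighbours, 3′ UTRs and hairpins come from GENCODE on mm10.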

Additional observations from a re-analysis of the deposited data

Results flagged for a closer look

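Changes that differed between groups by a test of the difference itself (edgeR's quasi-likelihood test on the contrast of 4 groups, adjusted over all genes) came up for 4 of the 5 genes. Relative to the typical mRNA, the single contrasts searched here called 6.47 to 23.9% of all genes. The share of all genes called in at least 1 of them was not counted, so the 4 of 5 has no background beside it. The cycloheximide change at 3 h, activated minus resting cells, differed by 2.001 for Zc3h12a (log2; adjusted p = 0.0179), by 1.267 for Rc3h1 (adjusted p = 0.00537) and by 1.376 for Rc3h2 (adjusted p = 0.015), relative to the typical mRNA. Per spike-in molecule none of these 3 was called (adjusted p = 0.161, 0.33 and 0.262). They were also lost without replicate 2 or 3 for Zc3h12a, without replicate 4 for Rc3h1 and without replicate 2 or 4 for Rc3h2 (adjusted p = 0.0904 to 0.292).

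The cycloheximide change in activated cells, with triptolide minus without, differed by -2.301 for Zc3h12a (adjusted p = 0.00257) and by 1.833 for Zc3h12d (adjusted p = 6.01e-06). Per spike-in molecule these differences were -2.23 for Zc3h12a (adjusted p = 0.0251) and 1.962 for Zc3h12d (adjusted p = 0.00249). The Zc3h12a difference over exons was lost without replicate 2 (adjusted p = 0.115). Per spike-in molecule that of Zc3h12a was lost without replicate 2, 3 or 4 (adjusted p = 0.0782 to 0.215) and that of Zc3h12d without replicate 4 (adjusted p = 0.167). In resting cells the difference for Zc3h12d was 1.298 (adjusted p = 0.00349), and 1.165 without replicate 3 (adjusted p = 0.0505).

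The triptolide change at 3 h, activated minus resting cells, differed by -1.958 for Zc3h12a over exons (adjusted p = 0.0408) and by -1.316 over the coding sequence (adjusted p = 0.275). Per spike-in molecule it was not called (adjusted p = 0.246), and the exon call was lost without replicate 2, 3 or 4 (adjusted p = 0.0877 to 0.274).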

How the results depend on the processing

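For Zc3h12a, 3 values changed sign with coding-sequence in place of exon counts: triptolide at 3 h in activated cells (-1.453), in resting cells (-0.137) and in resting cells per spike-in molecule (-1.759). With the replicate block within each state, 11 calls of the 5 genes were made for the translation inhibitors alone at 3 h, against 7 without it, 12 against 7 for differences of changes, and per spike-in molecule 10 against 4 for the inhibitors alone, 11 against 6 for inhibitors added to a transcription block and 7 against 2 for differences. On introns it gave 7 calls for the inhibitors alone, against 4. The block over all libraries moved no count beyond 1.5 times. Library size alone gave 10 calls for the added inhibitors, against 17. Leaving out each replicate in turn gave, on exons, 3 to 4 calls for activation against 6, 6 to 13 for transcription inhibitors against 12, 4 to 9 for translation inhibitors alone against 7, 8 to 16 for added inhibitors against 17 and 3 to 6 for differences against 7. Per spike-in molecule it gave 3 to 5 against 6, 7 to 16 against 16, 3 to 5 against 4, 3 to 6 against 6 and 0 to 1 against 2. On introns it gave 1 to 4 for activation against 4 and 6 to 9 for transcription inhibitors against 10. The cause was not tested, and such fits hold 2 libraries a group. Shares of all genes called under each alternative are not given here. The counts above thus describe the settings and are not results about the 5 genes. Of 52 exon calls 16 passed in every alternative, as did 14 of 37 per spike-in molecule and 8 of 21 on introns. Over all results and alternatives, 4308 kept their side of the threshold and their direction, 172 lost a call and 125 gained one. Zc3h12c, at 0 to 21.8 CPM, is limited most by depth.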
